A study of Rattus norvegicus with 4 samples.

Results

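The circadian clock genes described here are the 10 genes Clock, Arntl, Per1, Per2, Per3, Cry1, Cry2, Nr1d1, Nr1d2 and Dbp, chosen by symbol among the 25399 genes of the count files. They were followed in nuclei of the orbitofrontal cortex, a prefrontal region that weighs the value of rewards, from 8-week-old wild-type Sprague-Dawley rats, all male. METH rats had received methamphetamine, a monoamine-releasing psychostimulant, intraperitoneally at 1 mg/kg for 7 days. Saline rats had received intraperitoneal saline for 7 days. All animals were killed under pentobarbital anaesthesia. Tissue came from 4 animals per group and was read as 2 libraries per group, numbered 1 and 2 within METH and within saline. The sources used here do not give which animals entered which library, how many injections there were or at what time of day tissue was taken. P-values of METH against saline therefore reflect library-to-library spread alone, part of which may be technical. The comparison asks 2 things of these genes: whether METH and saline libraries differ in any cell type, and whether the libraries differ in clock gene levels alike in all cell types, as libraries sampled at different clock times would.

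The molecular clock is a feedback loop of transcription that runs in nearly every cell of the body with a period of about a day. The proteins of Clock and Arntl (BMAL1) bind E-box sequences as a pair and switch on the Per and Cry genes, whose proteins return to the nucleus and shut the pair down, and also the nuclear receptor genes Nr1d1 and Nr1d2 (REV-ERB alpha and beta), whose proteins repress Arntl through ROR elements. Dbp is a direct output of the pair and encodes a factor that binds D-boxes, so in tissues of nocturnal rodents Dbp, Nr1d1 and the Per genes peak in a different part of the day from Arntl. In the brain the clock of the suprachiasmatic nucleus follows light, while cortical clocks also respond to activity, feeding, glucocorticoids and stimulants, and Per1 and Per2 are induced by neuronal activity as well as by the clock.

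The elements through which these genes act on each other can be read in the promoters that RefSeq gives for them. RefSeq (rat assembly GRCr8) had promoters, from 250 bases before to 50 bases after a start site, for 9 of the 10 genes, 11 promoters in all, with Arntl listed as Bmal1 and Cry1 without an entry. The windows below are shown because they hold, in capitals, the sequence through which the loop is known to close: a ROR element for Arntl, an E-box variant and a D-box for Per2, and an E-box for Nr1d1. The E-box promoter follows from the rule for naming promoters, and the other windows were chosen after the matches were seen.

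Arntl, chr1:176766282-176766345, plus strand, ROR element: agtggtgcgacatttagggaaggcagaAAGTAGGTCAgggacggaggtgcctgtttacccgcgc
Per2, chr9:99497023-99497082, minus strand, E-box variant: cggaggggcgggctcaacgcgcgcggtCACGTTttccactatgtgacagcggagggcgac
Per2, chr9:99497151-99497212, minus strand, D-box: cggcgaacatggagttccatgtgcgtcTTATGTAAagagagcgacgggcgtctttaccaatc
Nr1d1, chr10:84229613-84229672, minus strand, E-box: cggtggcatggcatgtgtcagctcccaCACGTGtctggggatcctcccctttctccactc

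All 4 windows lie in promoters, upstream of the start site: the ROR element began 19 bases before it, the Per2 E-box variant 62 bases, the Per2 D-box 192 bases and the Nr1d1 E-box, in the second of its 2 listed promoters, 191 bases. Searched on both strands, the E-box CACGTG was in 6.42% of the 33469 rat promoters of this length and in 1 of the 11 clock gene promoters. The variant CACGTT was in 4.83% of all promoters and in 3 of the 11 (Per2, Cry2 and the other Nr1d1 promoter). The D-box TTATGTAA was in 0.893% of all promoters, the ROR element in 0.245%, and each was in 1 of the 11. The cyclic AMP response element TGACGTCA, in 1.83% of all promoters, was in none of the 11. None of these motifs overlaps another by its letters in the windows shown. A match describes the letters of a window and does not show binding.

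Each library is a table of UMIs, molecular barcodes of which each stands for a single captured transcript. The 4 libraries held 37758602 to 44034787 UMIs, and 7633 to 14969 nuclei per library were kept, 39587 in all. Saline replicate 1 stood apart, with the most nuclei and a median of 1960 UMIs per nucleus against 2807 to 3536 in the others. Any 2 libraries shared 23 to 69 barcodes, at most 0.672% of the smaller library. Nuclei fell into 23 clusters, named from marker genes with the clock genes left out of the clustering. Of these nuclei 18731 were excitatory neuron-like, 4469 inhibitory neuron-like, 4029 astrocyte-like, 3214 oligodendrocyte-like, 2904 oligodendrocyte precursor-like (OPC-like), 1731 microglia-like and 1064 vascular-like. A further 3277 nuclei, 2489 of them in saline replicate 1, were left unnamed, and 168 perivascular macrophage-like nuclei were too few for a test. By their means over the libraries, the defining markers Gad1, Aqp4, Mog, Pdgfra, Cx3cr1 and Flt1 were each highest in their own class. In any other class they reached at most 12% of that level. The vascular-like class was a mixture of clusters: 411 nuclei led by Flt1, 213 led by Ebf1 and Abcc9, and 440 led by Slc6a20 and Aldh1a2. The Slc6a20-led cluster had none of the vascular markers among its leading genes. It held 53 of the 170 vascular-like nuclei of METH replicate 1 and 128 of the 243 of saline replicate 1. Values of this class are therefore not those of a single cell type. The vascular-like class was uneven between libraries: its 13 vascular markers summed to 1259 CPM in saline replicate 1 and to 4330 to 4553 CPM in the other libraries. Slc17a7, the vesicular glutamate transporter of excitatory neurons, was at 7.5% to 22.3% of its excitatory level in the other classes and at 46.7% in vascular-like nuclei. The summed level of the 17 excitatory markers was highest in saline replicate 1 in each of the 6 other classes, for example 799 CPM (counts scaled to 1000000 UMIs of that class and library) in oligodendrocyte-like nuclei against 451 to 612 in the other libraries, and 3822 in vascular-like nuclei against 2451 to 2660. At 2489 CPM Rorb, one of these markers and itself a clock gene, was high in astrocyte-like nuclei, so the list's sum there does not measure neuronal RNA alone.

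All 10 clock genes differed in level between the 7 classes (adjusted p at most 0.027, edgeR's quasi-likelihood F test with Benjamini-Hochberg adjustment over all genes), but so did 95.5% of the 12245 genes tested, so this count says little about clock genes. Per1 lost its call without METH replicate 1 (adjusted p = 0.205, edgeR) and without METH replicate 2 (0.188; range over the alternatives 0.00891 to 0.205), which left 9 of 10. The 6 members Per3, Cry1, Cry2, Nr1d1, Nr1d2 and Dbp were higher in astrocyte-like nuclei of all 4 libraries than in any library of any other class. This held for 7.11% of all genes. Per3 and Nr1d2 overlapped, however, with the vascular-like cluster led by Slc6a20 and Aldh1a2. Its METH replicate 2 value was 976.5 CPM for Per3 and 186 for Nr1d2. The astrocyte-like values ran from 895.8 to 999.5 and from 152.6 to 181.5. Between classes Clock went the other way, with all 4 astrocyte values below those of every other class.

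Clock, which encodes the histone acetyltransferase partner of BMAL1, ran from 162 ± 22.4 CPM (SD, n = 4 libraries, as in all levels below) in oligodendrocyte-like nuclei through 132 ± 8.07 in inhibitory, 129.6 ± 10.7 in OPC-like, 128 ± 3.69 in excitatory and 117 ± 13.4 in vascular-like nuclei. Neighbours in that order overlapped. Microglia-like nuclei at 88.2 ± 8.25 and astrocyte-like nuclei at 63.7 ± 5.40 each lay apart below the class before them. Arntl, its partner, had another order. It was highest in excitatory neurons at 82.8 ± 4.53 CPM, which lay apart from vascular-like nuclei at 64.1 ± 10.5, and it then ran down through astrocyte-like (57.5 ± 8.16), inhibitory (52.1 ± 8.04), OPC-like (45.7 ± 10.2) and microglia-like (32.3 ± 4.25) to oligodendrocyte-like nuclei (21.9 ± 8.74), each overlapping the next. The class with the most Clock thus had the least Arntl.

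Among the Per genes, which encode the repressors that time the loop, Per2 followed Arntl. It was highest in excitatory neurons at 108 ± 12.3 CPM and lay apart there from OPC-like (82.7 ± 8.90), astrocyte-like (80.7 ± 18.1) and vascular-like nuclei (77.4 ± 8.56), which overlapped. Inhibitory neurons (57.1 ± 5.32) lay apart on both sides, and microglia-like (36.2 ± 13.3) and oligodendrocyte-like nuclei (14.5 ± 5.20) overlapped at the bottom. Per3 was at 938 ± 48.3 CPM in astrocyte-like nuclei, 1.89 times the level of vascular-like nuclei (495 ± 122) and 7.81 times that of inhibitory neurons, the lowest class. OPC-like (390.1 ± 32.1), oligodendrocyte-like (288 ± 55.1), microglia-like (202 ± 27.4) and excitatory nuclei (154 ± 3.58) lay between, and of these neighbours only vascular against OPC-like and OPC-like against oligodendrocyte-like nuclei overlapped. Per1 was sparse: it had 92 to 104 UMIs per library in excitatory neurons (3.97 ± 0.324 CPM) and 0 to 17 in any library of any other class. Its class means ran from 2.68 ± 0.763 to 6.53 ± 2.41 CPM and every neighbour overlapped.

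The Cry genes encode the strongest repressors of the loop. Cry1 stood at 50.01 ± 7.39 CPM in astrocyte-like nuclei and lay apart there from OPC-like (30.5 ± 4.15) and oligodendrocyte-like nuclei (30.0 ± 2.77). Inhibitory (23.2 ± 3.78), vascular-like (18.2 ± 6.26), excitatory (14.6 ± 0.906) and microglia-like nuclei (14.5 ± 6.28) followed, each overlapping the next. Cry2 stood at 173.5 ± 8.32 CPM in astrocyte-like nuclei, 1.71 times the level of excitatory neurons (101 ± 2.90), and then at 89.4 ± 8.93 in vascular-like, 70.6 ± 7.67 in inhibitory, 60.8 ± 6.34 in oligodendrocyte-like, 44.5 ± 6.40 in OPC-like and 29.2 ± 5.71 in microglia-like nuclei, all neighbours but inhibitory and oligodendrocyte-like lying apart.

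Nr1d1 and Dbp had the largest ratios, among the 10, of the astrocyte level to that of the next class. Nr1d1 was at 82.5 ± 1.70 CPM there, with 80.5 to 84.4 in the 4 libraries, 3.26 times the level of vascular-like nuclei (25.3 ± 12.2). It was at 14.3 ± 1.25 CPM in excitatory neurons and at 9.89 ± 1.52 in inhibitory neurons. The remaining classes held 7.76 ± 2.39 (OPC-like), 6.42 ± 1.51 (oligodendrocyte-like) and 2.78 ± 2.49 CPM (microglia-like) on 0 to 15 UMIs per library, and these overlapped. Dbp was at 157 ± 16.4 CPM in astrocyte-like nuclei, 2.72 times the vascular-like level (57.7 ± 16.0), which in turn lay apart from excitatory (27.2 ± 2.74) and inhibitory neurons (20.9 ± 2.39). Oligodendrocyte-like (18.2 ± 5.98), microglia-like (16.8 ± 7.97) and OPC-like nuclei (12.1 ± 4.33) overlapped. Nr1d2, the paralog of Nr1d1, spread more evenly: 164 ± 13.4 CPM in astrocyte-like, 124 ± 32.2 in vascular-like, 95.4 ± 14.6 in OPC-like and 87.5 ± 19.99 in oligodendrocyte-like nuclei, with excitatory (73.2 ± 3.96), microglia-like (72.2 ± 21.4) and inhibitory nuclei (71.0 ± 3.75) overlapping.

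**Figure D1:**
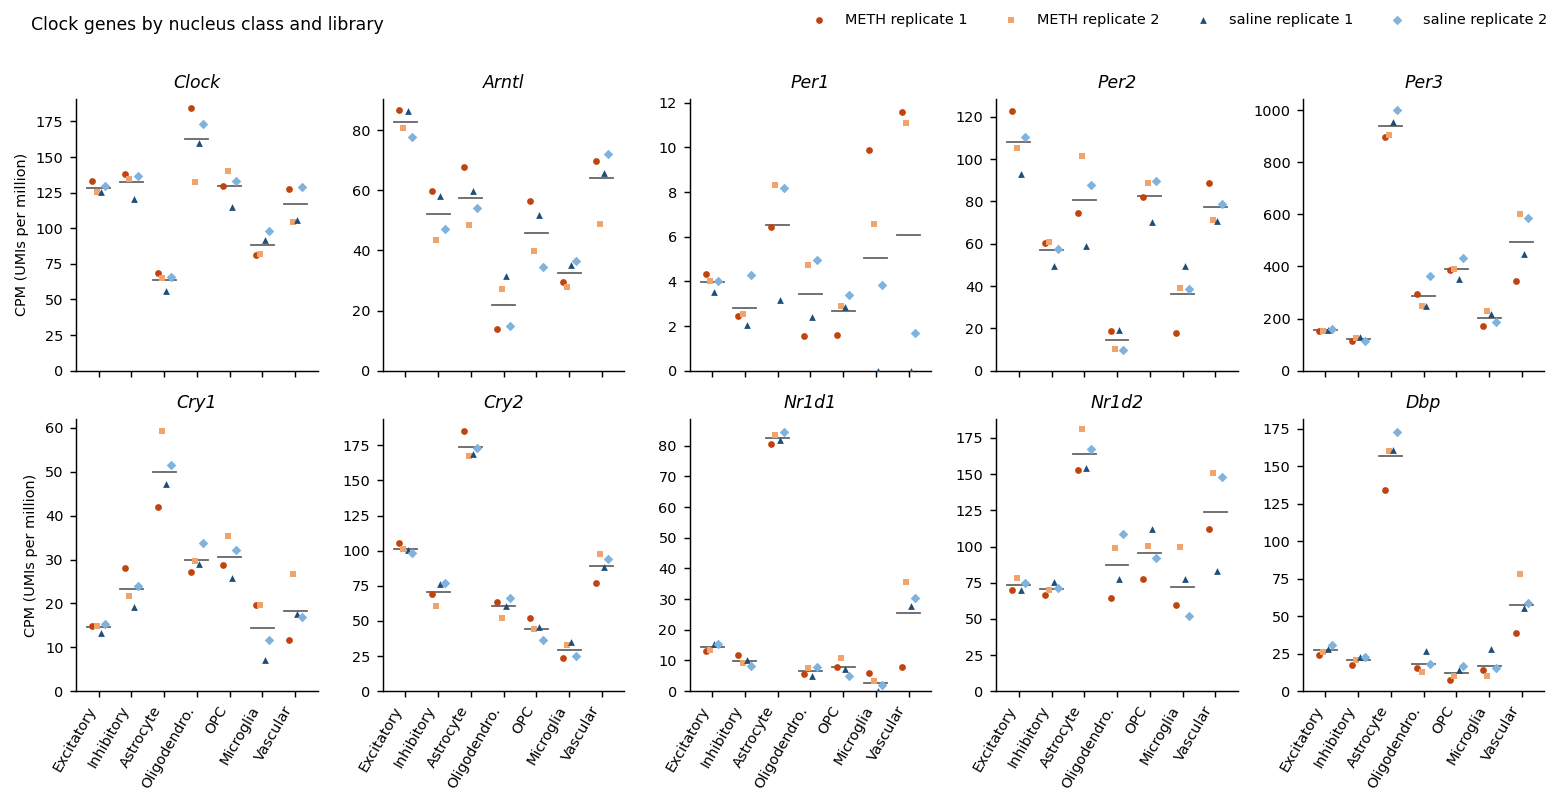
Each panel plots 1 clock gene, in CPM on a linear axis from 0, in the 7 nucleus classes; symbols are the 4 libraries and grey lines their mean. Per3, Nr1d1 and Dbp stand highest in astrocyte-like nuclei (938, 82.5 and 157 CPM) and Per2 and Arntl in excitatory neurons (108 and 82.8 CPM). Libraries spread widely where UMIs are few, for example Per1 from 0 to 11.6 CPM in vascular-like nuclei.

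Set as neurons against glia, the mean of the 2 neuronal classes against that of astrocyte-like, oligodendrocyte-like, OPC-like and microglia-like nuclei on the log2 scale, 7 of the 10 genes differed, where 76.7% of all genes did. Per2 (log2 difference 1.05, SE 0.084), Arntl (0.98, SE 0.081), Cry2 (0.62, SE 0.067) and Clock (0.46, SE 0.051) were higher in neurons. Per3 (-1.36, SE 0.064), Cry1 (-0.53, SE 0.10) and Nr1d2 (-0.33, SE 0.068) were lower, all 7 with adjusted p at most 3.18e-05 by edgeR's quasi-likelihood test. Per1 (-0.24, 95% interval -0.73 to 0.26), Nr1d1 (0.23, -0.13 to 0.59) and Dbp (0.02, -0.19 to 0.22) did not pass the test. For Dbp, Nr1d1 and Cry2 the contrast averages a high astrocyte level with low levels in the other glia. Cry2, though higher in neurons by this contrast, was highest in astrocyte-like nuclei.

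Neurons were not uniform either, as the clusters within the excitatory class show (a description, since clusters were formed from these same nuclei). Arntl ranged from 59.0 ± 6.01 CPM in the cluster led by Foxp2 and Syt6, genes of deep-layer corticothalamic neurons, to 110 ± 11.9 in the cluster led by Htr4. That Htr4-led cluster had the lowest Per2 of the excitatory clusters, 61.6 ± 12.2 CPM against 96.7 to 124 in the other 7. It also had the lowest Nr1d1 (5.50 ± 1.59) and Dbp (15.3 ± 6.31), on as few as 2 and 5 UMIs in a library. Its Dbp values overlapped those of the Foxp2-led cluster. The cluster led by Pld5 was the highest of the excitatory clusters in Nr1d1 (23.8 ± 2.32), Nr1d2 (105 ± 8.25), Dbp (34.6 ± 6.98) and Cry1 (22.2 ± 1.55). Its Dbp and Cry1 values overlapped those of the Glis3-led cluster. Per3 was highest in the Foxp2-led cluster at 223 ± 15.7 CPM, 2 clusters (Pld5 and Htr4) came close at 205 and 203, and the Hgf-led cluster was lowest at 106 ± 7.36. Among inhibitory clusters the Vip-led cluster had the most Per3 (174 ± 10.4) and the least Dbp (13.7 ± 6.10), each overlapping the values of another inhibitory cluster.

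The genes whose pattern was most like a clock gene's were sought by Pearson's r of log2(CPM + 1) over the 28 class-by-library sums, among 9386 genes; the sums share libraries and cell classes, so r describes cell-type distribution and carries no p. Among the genes most like Per3 were Plpp3 (0.968) and Slc38a3 (0.932). Dbp was most like Aqp9 (0.944), an aquaglyceroporin, Clybl (0.912) and Pdlim3 (0.911). Cry2 came nearest to Hlcs (0.933), Tom1l2 (0.918) and Me1 (0.909), Nr1d1 to Sfxn5 (0.914), Lix1 (0.911) and Aifm3 (0.91), and Cry1 to Adhfe1 (0.912), Immp1l and Ndufs1 (both 0.871). Nr1d2 was most like Tef (0.908), which encodes a D-box factor of the same family as Dbp, then Atp13a4 (0.871) and Aass (0.862). For the genes highest outside astrocytes the nearest included Smpd3 (0.912) and Ece1 (0.909) for Per2, Sntb2 (0.904), Adgrl1 (0.902) and Kalrn (0.897) for Arntl, and Tmeff2 (0.916), Edil3 (0.913) and Ank3 (0.909) for Clock. Per1, with few UMIs, reached no more than 0.77 (St3gal2), 0.725 (Crtc2) and 0.711 (Safb). Among the members themselves Cry2 with Nr1d1 (0.868), Per3 with Nr1d2 (0.865) and Arntl with Per2 (0.829) were most alike, and Clock with Dbp least (-0.643).

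No clock gene passed the test between METH and saline in any class. In each class the 2 METH libraries were set against the 2 saline libraries by edgeR's quasi-likelihood test on summed counts with adjustment over all genes tested. Calls were rare for any gene: 0.00666% of genes in excitatory neurons, 0.0169% in inhibitory neurons, 0.00991% in astrocyte-like, 0.0224% in oligodendrocyte-like and 0.0204% in OPC-like nuclei, and 0% in microglia-like nuclei, in vascular-like nuclei and over all nuclei. Of the 70 pairs of a clock gene and a class, 60 passed the filter on low counts, and 0 of them were called (adjusted p at least 0.9989), nor were any by DESeq2. At an unadjusted p under 0.05 there were 2 of the 60, Dbp in excitatory neurons and Cry2 in inhibitory neurons, where 3.72% of all tests of the 7 classes reached it. The genes not tested were Per1 in inhibitory, oligodendrocyte-like, OPC-like, microglia-like and vascular-like nuclei, Nr1d1 in oligodendrocyte-like, OPC-like and microglia-like nuclei, Dbp in microglia-like and Cry1 in vascular-like nuclei. The median log2 fold change over the members tested was between -0.13 and 0.09 in the 7 classes, and that over all genes between -0.01 and 0.01. Counts summed over the nuclei of a class, as tested here, do not tell fewer expressing nuclei from less RNA per nucleus.

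Excitatory neurons were the class with the most UMIs. Dbp stood at 24.2 and 26.0 CPM in the METH libraries and at 28.2 and 30.6 in the saline libraries. Both METH values lay below both saline values, a log2 fold change of -0.20 (SE 0.086, adjusted p = 0.9999, edgeR). Nr1d1 stood at 13.1 and 13.4 CPM with METH and 15.2 and 15.5 with saline, again without overlap (-0.20, SE 0.11, adjusted p = 0.9999, edgeR). Per2 stood at 123 and 105 CPM with METH and at 93.1 and 110.5 with saline. Here the METH libraries spanned the higher saline library, and the log2 fold change was 0.19 (SE 0.10, adjusted p = 0.9999, edgeR). The other log2 fold changes were 0.17 for Per1 (SE 0.18), 0.08 for Cry1 (SE 0.11) and Cry2 (SE 0.062), 0.05 for Arntl (SE 0.075) and Nr1d2 (SE 0.073), 0.04 for Clock (SE 0.062) and -0.03 for Per3 (SE 0.057). The 95% intervals of the 8 genes other than Per1 and Per2 all lay within -0.43 and 0.33. In 5 of the 10 genes the groups did not overlap (Per1 and Cry2 higher with METH; Per3, Nr1d1 and Dbp lower), where 31.6% of all genes in this class did not.

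In inhibitory neurons Cry2 stood at 68.9 and 60.5 CPM with METH and at 76.3 and 76.8 with saline. The groups did not overlap, and the log2 fold change was -0.24 (SE 0.10, unadjusted p = 0.034, adjusted p = 0.9996, edgeR). Dbp, at 17.7 and 20.5 CPM with METH and 22.7 in both saline libraries, had a log2 fold change of -0.26 (SE 0.18). Per2, at 60.5 and 61.0 CPM with METH and 49.5 and 57.3 with saline, had one of 0.18 (SE 0.12). These 2 also lay apart in their libraries and did not pass the test (adjusted p = 0.9996 each, edgeR). The other 6 tested genes ran from -0.11 (Nr1d2) to 0.23 (Nr1d1). Of all 10 genes 1 lay above saline without overlap (Per2) and 3 below (Cry2, Nr1d2 and Dbp). The share of all genes that lay apart was taken only in excitatory neurons (31.6%), microglia-like nuclei (31.9%) and over all nuclei (36%).

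In astrocyte-like nuclei Per2 stood at 74.7 and 101 CPM with METH and at 59.0 and 87.7 with saline, and the groups overlapped (log2 fold change 0.29, SE 0.21). Dbp stood at 134 and 160 CPM with METH and at 161 and 173 with saline, without overlap though by a margin under 1 CPM (-0.17, SE 0.13). Per3 stood at 896 and 903 CPM with METH and at 953 and 999.5 with saline, also without overlap (-0.11, SE 0.098). None of the 3 passed the test (adjusted p = 0.9996, edgeR). Nr1d1 was the most even, with a log2 fold change of -0.01 and a 95% interval from -0.32 to 0.30, and the other 6 ran from 0.02 (Arntl) to 0.42 (Per1).

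Oligodendrocyte-like nuclei held fewer UMIs of these genes. Dbp stood at 15.6 and 12.8 CPM with METH and at 26.6 and 17.9 with saline (log2 fold change -0.52, SE 0.39). Per3 stood at 293.5 and 248 CPM with METH and at 247 and 364 with saline (-0.19, SE 0.16), and Nr1d2 at 64.6 and 99.3 with METH and at 77.5 and 108 with saline (-0.20, SE 0.23). Dbp lay apart and the other 2 overlapped, and for all 3 the adjusted p was 0.9989 (edgeR). The other 5 tested genes ran from -0.14 (Cry1) to 0.17 (Per2). In OPC-like nuclei Dbp stood at 7.17 and 10.1 CPM with METH and at 14.4 and 16.9 with saline, from 9 to 20 UMIs per library, the largest negative log2 fold change among the members (-0.86, SE 0.44, unadjusted p = 0.0541, adjusted p = 0.9994, edgeR). Cry2 (51.8 and 44.1 CPM with METH, 45.9 and 36.3 with saline) had 0.25 (SE 0.23), and Nr1d2 (77.3 and 100 CPM with METH, 112 and 92.0 with saline) had -0.16 (SE 0.17). Both overlapped between groups (adjusted p = 0.9994 each, edgeR), and the other 5 tested genes ran from -0.03 (Per3) to 0.21 (Arntl).

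Microglia-like and vascular-like nuclei, the smallest of the 7 classes, held few UMIs of several clock genes. In microglia-like nuclei Nr1d2 stood at 59.2 and 99.9 CPM with METH and at 77.7 and 52.0 with saline (log2 fold change 0.47, SE 0.33), Cry1 at 19.7 in both METH libraries and at 7.06 and 11.6 with saline (0.89, SE 0.68), and Per2 at 17.8 and 39.3 with METH and 49.4 and 38.5 with saline (-0.48, SE 0.43). Of these 3 Cry1 lay apart, and it rested on 1 UMI in saline replicate 1, which had 159 microglia-like nuclei. All 3 had an adjusted p of 0.9997 (edgeR), and the other 4 tested genes ran from -0.33 (Arntl) to 0.06 (Cry2). Clock stood at 80.95 and 81.89 CPM with METH and at 91.78 and 98.16 with saline, and Arntl at 29.61 and 27.84 with METH and at 35.3 and 36.57 with saline. Both thus lay below saline without overlap, on 13 and 5 UMIs in saline replicate 1, so that 3 of the 7 tested genes lay apart, where 31.9% of all genes in this class did. Of the genes not tested there, Dbp lay below saline, and Per1 and Nr1d1 lay above it with 0 UMIs in saline replicate 1. Vascular-like nuclei of saline replicate 1 had a low sum of vascular markers, as given above, and its part in the values of this class was not tested. In vascular-like nuclei Arntl stood at 69.6 and 48.9 CPM with METH and at 65.6 and 72.2 with saline (-0.28, SE 0.33). Nr1d2 stood at 112 and 151 CPM with METH and 83.3 and 148 with saline (0.17, SE 0.33), and Nr1d1 at 7.73 and 35.6 with METH and 27.7 and 30.2 with saline (-0.27, SE 0.59). All 3 overlapped (adjusted p = 0.9998, edgeR), and the other 5 tested genes ran from -0.14 (Per3) to 0.07 (Dbp).

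Summed over all nuclei, a value that also moves with the mix of classes, the METH libraries stood at 131 and 122 CPM for Clock against 123 and 129 with saline, at 76.7 and 68.0 for Arntl against 80.0 and 68.7, and at 4.09 and 4.22 for Per1 against 3.05 and 4.26. For Per2 they stood at 103.5 and 92.7 against 83.7 and 97.5, for Per3 at 197 and 222 against 195 and 208, and for Cry1 at 18.9 and 20.8 against 16.1 and 18.8. For Cry2 they stood at 98.5 and 94.2 against 96.4 and 93.9, for Nr1d1 at 15.3 and 17.1 against 17.0 and 16.5, for Nr1d2 at 73.5 and 87.2 against 75.3 and 80.0, and for Dbp at 27.3 and 32.9 against 32.7 and 34.0. Cry1 alone did not overlap between groups, 1 of 10 where 36% of all genes did not. The log2 fold changes ran from -0.17 (Dbp, SE 0.094) to 0.17 (Per1, SE 0.19; Cry1, SE 0.10), with adjusted p of at least 0.8119 by edgeR.

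**Figure D2:**
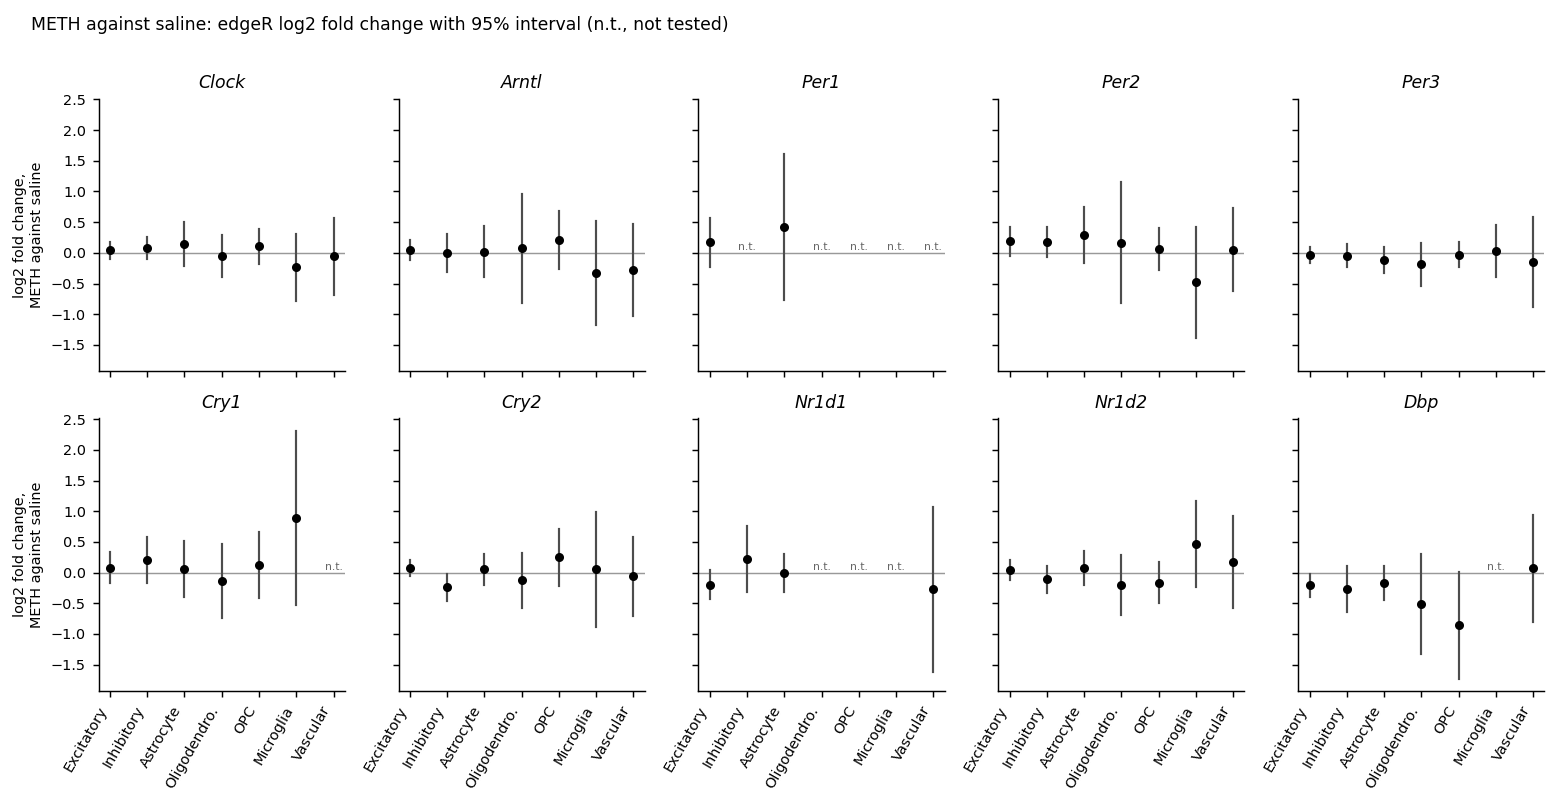
Each panel plots 1 clock gene; points are log2 fold changes of METH against saline by edgeR in the 7 classes, bars their 95% intervals, and n.t. marks a gene not tested there. Dbp lies below 0 in 5 of the 6 classes tested and Per2 above 0 in 6 of 7, and the genes tested in microglia-like or vascular-like nuclei have wider intervals there than in excitatory neurons.

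Dbp was the member whose groups lay apart most often. Both METH libraries were below both saline libraries in 6 of the 7 classes, the exception being vascular-like nuclei (38.7 and 77.8 CPM with METH, 55.5 and 58.8 with saline); in microglia-like nuclei, where Dbp had 4 to 8 UMIs per library and was not tested, it stood at 13.8 and 9.83 CPM with METH and 28.2 and 15.4 with saline. Lying below without overlap in at least 6 of 7 classes held for 0.0572% of the 12233 genes compared, and lying above for 0.0899%. The classes of a library share it, so these are not 6 independent results, and Dbp was singled out among the 10 after its values were seen. Averaged over the 7 classes as log2(CPM + 1), Dbp was 4.61 and 4.79 with METH and 5.17 and 5.05 with saline. The difference of -0.41 had an exact two-sided permutation p of 0.333, the smallest that 2 libraries against 2 can give. Per1 also lay apart on this measure, above saline, with a difference of 0.67 and the same permutation p. It had 0 UMIs in microglia-like and vascular-like nuclei of saline replicate 1. The count for Dbp fell to 3 classes when nuclei needed at least 1000 genes. In astrocyte-like nuclei the log2 fold change of Dbp was then 0.08 (adjusted p = 0.998, edgeR, and at least 0.962 under every alternative run). That filter left fewer than 50 nuclei in some libraries of 3 classes, down to 16 oligodendrocyte-like and 15 microglia-like nuclei in saline replicate 1. The count was 5 with doublets kept, 4 with classes named by marker UMIs or with equal numbers of nuclei, and 6 without saline replicate 1, all added after seeing the data. In saline replicate 1 the high Dbp of oligodendrocyte-like (26.6 CPM) and microglia-like nuclei (28.2 CPM) stood beside the highest excitatory marker sums of those classes (799 and 1038 CPM), and Dbp in that library's excitatory neurons was 28.2 CPM. Slc17a7 itself, at 65.4 and 77.7 CPM in those 2 classes, was no higher there than in METH replicate 1 (66.2 and 80.9 CPM); the part of neuronal RNA in the result was not tested.

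The fit across classes asked whether the METH minus saline difference of a gene differed between classes. None of the 10 genes was called by edgeR, where 0.0408% of all genes were, and 0 had an unadjusted p under 0.05. Per1 had the smallest p (adjusted p = 1, edgeR).

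The second question was whether libraries differ in clock genes in all classes alike. In a fit over the 28 class-by-library sums with class as a term, which compares these 4 libraries and not the conditions and whose p-values rest on the spread across classes within them, 0 of the 10 genes were called, where 1.72% of all genes were. At an unadjusted p under 0.05 there were 5 (Dbp, Per2, Nr1d2, Arntl and Clock), where 12.4% of all genes reached it. Dbp had the smallest adjusted p, 0.0926 by edgeR, followed by Per2 (0.134) and Nr1d2 (0.17). With no filter on low counts Per2 was called (adjusted p = 0.0451, edgeR, range over the alternatives 0.0451 to 0.99).

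Libraries of the same group were compared in the same fit. Between the METH libraries, 0 genes were called (0.588% of all genes were) and 3 had an unadjusted p under 0.05 (8.88% of all genes did). Nr1d2 was lower in METH replicate 1 than in METH replicate 2 in 7 of 7 classes, with a shared log2 difference of -0.28 (SE 0.081, adjusted p = 0.1095, edgeR). It was called when saline replicate 1 was left out of the fit (adjusted p = 0.0462, range over the alternatives 0.0462 to 0.526). Arntl, which the product of Nr1d2 represses, was higher in 6 of 7 classes (0.24, SE 0.090, adjusted p = 0.3312, edgeR), and Dbp lower in 5 of 7 (-0.19, SE 0.091, adjusted p = 0.5236, edgeR).

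Between the saline libraries 0 genes were called (0.506% of all genes were) and 4 had an unadjusted p under 0.05 (10.9% of all genes did). Per2 was lower in saline replicate 1 than in saline replicate 2 (-0.28, SE 0.096, adjusted p = 0.2128, edgeR) in 5 of 7 classes, Cry1 (-0.23, SE 0.11) in 6 of 7 and Clock (-0.17, SE 0.069) in 7 of 7. Arntl was higher in 5 of 7 (0.21, SE 0.095, adjusted p = 0.4012, edgeR). Depth and excitatory marker RNA also set saline replicate 1 apart, as given above, and their part in these differences was not tested.

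**Figure D3:**
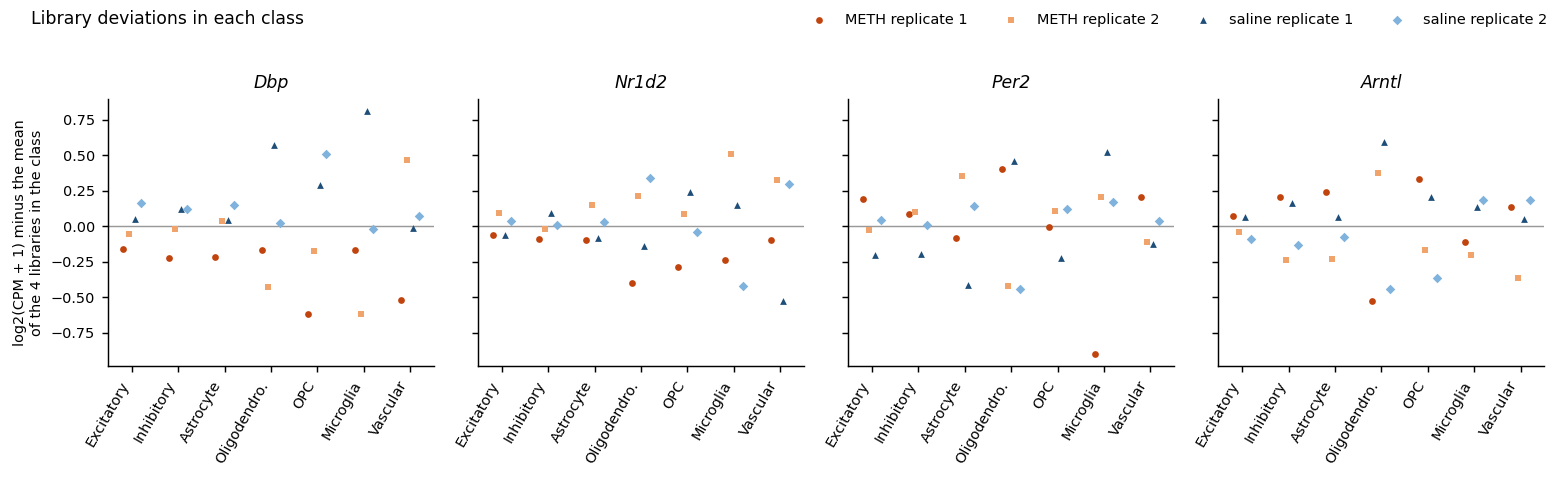
Points show log2(CPM + 1) of Dbp, Nr1d2, Per2 and Arntl in each library minus the mean of the 4 libraries in that class. In Dbp the METH libraries lie below the saline libraries in 6 of 7 classes, while in Nr1d2 METH replicate 1 lies below METH replicate 2 in 7 of 7 and in Arntl above it in 6 of 7.

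To set outputs against their antiphase partner in a single value, a clock balance was taken as the mean log2(CPM + 1) of Per1, Per2, Per3, Nr1d1, Nr1d2 and Dbp minus that of Arntl; it is a description and has no test. In excitatory neurons the balance was -1.25 and -1.15 with METH and -1.27 and -1.01 with saline, and in inhibitory neurons -1.17 and -0.698 with METH and -1.12 and -0.736 with saline. In astrocyte-like nuclei it was 0.505 and 1.2 with METH and 0.548 and 1.03 with saline. In all 3 classes the groups overlapped, and the difference between group means (-0.06, -0.01 and 0.06) was smaller than the gap between the 2 libraries of either group. In oligodendrocyte-like nuclei the balance was 0.530 and -0.230 with METH and -0.404 and 0.794 with saline, in OPC-like nuclei -1.04 and -0.221 with METH and -0.658 and -0.0399 with saline, and in vascular-like nuclei -0.502 and 0.650 with METH and -0.717 and -0.356 with saline, all overlapping. Microglia-like nuclei alone did not overlap, with -0.322 and -0.136 in METH and -1.08 and -0.822 in saline. That difference of 0.72 rests on genes with 0 UMIs in saline replicate 1, and it was -2.73 with at least 1000 genes per nucleus, which left 15 nuclei of this class in saline replicate 1.

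The balance moved with the library within both groups. It was lower in METH replicate 1 than in METH replicate 2 in 6 of 7 classes and lower in saline replicate 1 than in saline replicate 2 in 7 of 7. In 5 of 7 classes both libraries numbered 1 were below both numbered 2. Arntl, which enters with a minus sign, differed by 0.106 and 0.448 log2 units between METH replicates 1 and 2 in excitatory and inhibitory neurons. The balance differed there by -0.105 and -0.472. In oligodendrocyte-like nuclei, where the METH order was reversed, Arntl differed by -0.9 and the balance by 0.761. Between saline replicates 1 and 2 Arntl was higher in 5 of 7 classes and lower in 2. The part of Arntl in these gaps was not tested. The labels do not say that a number marks a shared day or batch. The sparsest gene of the balance had at least 92 UMIs per library in excitatory neurons. Elsewhere it fell to 7 in inhibitory, 4 in astrocyte-like, 2 in OPC-like, 1 in oligodendrocyte-like and 0 in microglia-like and vascular-like nuclei. The part of such low counts in these orders was not tested.

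**Figure D4:**
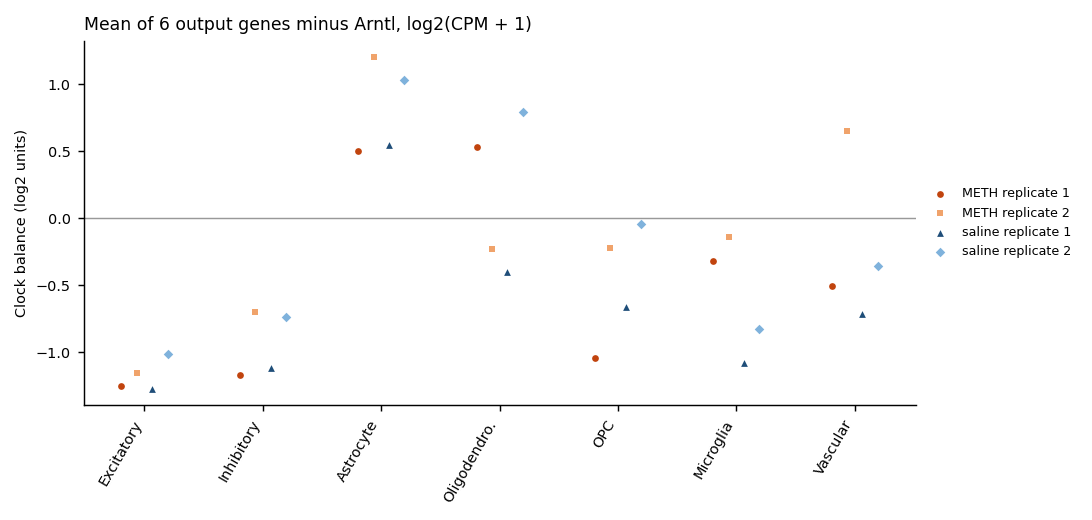
The clock balance (mean log2(CPM + 1) of 6 output genes minus Arntl) is plotted for each library in the 7 classes. In 6 of 7 classes METH and saline libraries overlap, and in 5 of 7 both libraries numbered 1 lie below both numbered 2.

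The other genes of the clock pathway were taken from a list of 23, such as the CLOCK paralog Npas2, the ROR receptors that activate Arntl, the D-box factors Tef, Hlf and Nfil3, the repressors Bhlhe40 and Bhlhe41, and the kinases and ubiquitin ligases that set the stability of PER and CRY. None was called between METH and saline in any class or over all nuclei (12 to 22 tested per fit, edgeR), and 4 of 122 class tests had an unadjusted p under 0.05, 3.28% where 3.72% of all genes' tests did. Their median log2 fold change was 0.04 in excitatory neurons, -0.09 in inhibitory neurons, -0.06 in astrocyte-like, 0.05 in oligodendrocyte-like, -0.06 in OPC-like, -0.05 in microglia-like and -0.06 in vascular-like nuclei, and 0.00 over all nuclei (medians over all genes -0.01 to 0.01).

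Npas2 stood at 371 and 383 CPM with METH and 345.5 and 356 with saline in excitatory neurons, without overlap (log2 fold change 0.12, SE 0.056, adjusted p = 0.9999, edgeR). In astrocyte-like nuclei it stood at 616 and 716 CPM with METH and 518 and 618.5 with saline, overlapping by little (0.24, SE 0.12), and in microglia-like nuclei at 9.87 and 32.8 with METH and 77.7 and 28.9 with saline (-0.88, SE 0.54). Rora in excitatory neurons had 0.11 (SE 0.073) and Ciart in astrocyte-like nuclei -0.26 (SE 0.27). In inhibitory neurons the smallest p belonged to Hlf (-0.33, SE 0.16) and Cipc (-0.20, SE 0.12). In oligodendrocyte-like nuclei Nfil3, a repressor at D-boxes, stood at 20.2 and 23.0 CPM with METH and 7.27 and 12.9 with saline (0.98, SE 0.42, adjusted p = 0.9989, edgeR), and Cipc had -0.27 (SE 0.15). In OPC-like nuclei Bhlhe41 stood at 4.78 and 4.34 CPM with METH and 10.0 and 11.0 with saline (-1.20, SE 0.57, adjusted p = 0.9994, edgeR), and Csnk1e had 0.38 (SE 0.26). In microglia-like nuclei Cipc had 0.44 (SE 0.33). In vascular-like nuclei Fbxw11, a ubiquitin ligase subunit acting on PER proteins, stood at 108 and 73.3 CPM with METH and 134 and 175 with saline (-0.82, SE 0.30, adjusted p = 0.9998, edgeR), and Rorb had -0.75 (SE 0.45). Over all nuclei the smallest p belonged to Bhlhe41 (0.27, SE 0.17) and Fbxl21 (-0.21, SE 0.15).

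Across classes these genes were uneven too. Between neurons and glia 16 of 20 tested genes differed, 9 higher and 7 lower in neurons, where 76.7% of all genes differed. Npas2 (log2 difference 2.44, SE 0.11), Hlf (1.28, SE 0.11) and Rora (1.13, SE 0.086) were higher in neurons, as were Noct, Usp2, Fbxl21, Nfil3, Btrc and Ciart. Among the lower genes were Bhlhe41 (-2.94, SE 0.19), Rorb (-0.54, SE 0.17) and Tef (-0.49, SE 0.072), along with Csnk1d, Nampt and Csnk1e (adjusted p at most 0.023 for all 16, edgeR). The contrast hides astrocytes here too: Npas2 was at 617 ± 80.7 CPM in astrocyte-like nuclei, above excitatory neurons at 364 ± 16.4, against 21.1 in oligodendrocyte-like and 17.0 in OPC-like nuclei. Rorb was at 2489 ± 222 CPM in astrocyte-like and 382 ± 35 in excitatory nuclei. Rora was at 193.5 CPM in astrocyte-like nuclei, against 64.4 in excitatory and 94.3 in inhibitory neurons. Usp2 and Ciart too had higher means in astrocyte-like nuclei than in either neuronal class, as had Hlf, Noct and Fbxl21 by smaller margins. Bhlhe41 was highest in microglia-like nuclei at 61.0 ± 11.8 CPM, against 1.27 in excitatory neurons.

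Because Per1 is induced by neuronal activity and by glucocorticoids, genes of both inputs were read in the same fits. Of 8 activity genes (Fos, Fosb, Junb, Arc, Egr1, Npas4, Nr4a1 and Dusp1), none was called between METH and saline in any class or over all nuclei (edgeR), and 1 of 34 class tests, Fosb in excitatory neurons, had an unadjusted p under 0.05. Fosb stood there at 6.99 and 8.69 CPM with METH and 6.21 and 6.23 with saline (log2 fold change 0.35, SE 0.15, adjusted p = 0.9999, edgeR). Dusp1, a phosphatase, stood at 17.8 and 14.8 CPM with METH and 21.0 and 18.5 with saline (-0.25, SE 0.12) without overlap. The median of the 8 was 0.10 in excitatory neurons and that of the 7 tested in inhibitory neurons 0.19. Egr1 was the 1 of 7 called for differences between the 4 libraries shared by classes, where 1.72% of all genes were, and it lost the call without saline replicate 2 (adjusted p = 0.0586, edgeR; range over the alternatives 6.44e-06 to 0.0586).

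Of 7 glucocorticoid response genes (Fkbp5, Tsc22d3, Sgk1, Zbtb16, Nfkbia, Pdk4 and Errfi1), Sgk1, a kinase induced by corticosteroids, was called in oligodendrocyte-like nuclei. It stood at 269 and 269.5 CPM with METH and at 99.3 and 143 with saline, without overlap (log2 fold change 1.12, SE 0.16, adjusted p = 0.0068, edgeR), and 0.0224% of all genes were called in this class. The call held under 9 of 13 alternatives and was lost with equal numbers of nuclei (adjusted p = 0.358, edgeR), doublets kept (0.995), at least 1000 genes per nucleus (0.999) and classes named by marker UMIs (1). The log2 fold change ran from 0.66 to 1.5 over the 13, which were applied to this gene after seeing the data. All 7 had log2 fold changes above 0 there, with a median of 1.11 against 0.01 over all genes, and 4 had an unadjusted p under 0.05, which 3.84% of all genes had. Pdk4, an inhibitor of pyruvate use, stood at 49.8 and 58.7 CPM with METH and 17.0 and 29.8 with saline (1.11, SE 0.28, adjusted p = 0.7018, edgeR) and did not pass. In astrocyte-like nuclei all 7 were also above 0, with a median of 0.47, and none was called. Tsc22d3 stood there at 48.9 and 66.7 CPM with METH and 29.1 and 23.8 with saline (1.15, SE 0.23, adjusted p = 0.6155, edgeR), and Nfkbia had 0.65 (SE 0.25). The median was 0.04 in excitatory and 0.10 in inhibitory neurons, where Zbtb16 had 0.24 (SE 0.059) and 0.31 (SE 0.092) and Fkbp5 0.29 (SE 0.11) and 0.53 (SE 0.22), none of them called. Tsc22d3 and Zbtb16 were the 2 of 7 called for differences between libraries shared by classes, where 1.72% of all genes were. Tsc22d3 lost the call under 3 of 7 alternatives (without METH replicate 2, without saline replicate 2, and with marker UMIs; adjusted p up to 0.315, edgeR). Zbtb16 lost it under 4 of 7 (the same 3 and without saline replicate 1; up to 0.164). Beside these values Per1 had a log2 fold change of 0.17 (95% interval -0.23 to 0.57) in excitatory neurons and 0.42 (-0.78 to 1.61) in astrocyte-like nuclei, and it was not tested in oligodendrocyte-like nuclei, where it had 1 to 7 UMIs per library.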

How the data were processed

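Nuclei were captured with 10x Genomics 3' chemistry, per the labels' protocols. The authors deposited raw UMI counts per gene and barcode, made with Cell Ranger 7.0.0, per the submitters' processing notes. These notes name the build hg38, yet each of the 25399 gene identifiers is a rat Ensembl one. The rat build, the annotation, the use of strand and the handling of near-identical genes were not given in the sources used here. No coordinate comes from the deposited files. Every deposited barcode had at least 500 UMIs.

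Barcodes with under 500 genes or over 5% mitochondrial UMIs were left out. Scrublet's automatic threshold marked 0% of saline replicate 1, a failure there, and the highest-scoring barcodes, 0.8% per 1000, were removed in every library. Scanpy 1.11.5 clustered log-scaled counts (3000 variable genes without the listed clock, activity and glucocorticoid genes, 30 components, 20 neighbours, Leiden resolution 1). Clusters were named from the marker list scoring highest on scaled expression (score 0.4 or more, the runner-up of an unrelated type at 0.6 of it or less, 3 or more markers found in 10% of nuclei); these limits were set after seeing the data. Naming each nucleus by its marker UMIs agreed for 72.3%.

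Counts were summed per class and library in classes with at least 50 nuclei in every library. edgeR 4.0.16 in R 4.3.3 (TMM, filterByExpr, robust quasi-likelihood, two-sided) tested METH against saline, and fits over the 28 class-by-library sums tested class, library and class-by-treatment terms; calls are at an adjusted p under 0.05. SEs are the fold change over the square root of F. The tests were also run on simulated counts, drawn independently for each sum. These counts lacked error shared by the classes of a library, so they do not check the p-values of the fits across classes for it. CPM is the count scaled to 1000000 UMIs of the sum, with 1 added before logs. DESeq2 1.42.0, other scalings, filters, namings and left-out libraries were tried. The members and lists were chosen with earlier results of these data known. Named in each class are the 3 members with the smallest p, and of other lists the genes called or else the 2 with the smallest p; a few genes that these rules name are not reported here. The numbers are not said to pair libraries, and same-numbered libraries deviated together only weakly (r = 0.158 over 9120 genes, 2 pairs). The fits of METH against saline therefore carry no replicate block. The class-by-treatment fit carries library as a block.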

Additional observations from a re-analysis of the deposited data

How the results depend on the processing

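The number of clock genes called between METH and saline was 0 in every class and over all nuclei under each alternative run: DESeq2, other size factors, no filter on low counts, a fit that was not robust, a stricter filter on nuclei, doublets kept, classes named by marker UMIs, equal numbers of nuclei, the replicate block, and each library left out. In the paired fit with the replicate block, 0 clock genes were called in each class. That fit was run although 2 pairs with r = 0.158 do not show that the numbers pair the libraries. Among all genes it called more than the main fit in every class, for example 37 against 2 in oligodendrocyte-like nuclei. Over all nuclei it called 21 against 0. What the replicate numbers mark was not tested. Of the counts of calls that were 0, 2 moved, both to 1: differences between libraries shared by classes with no filter on low counts (Per2), and METH replicate 1 against METH replicate 2 over the fits with a library left out (range 0 to 1; Nr1d2, without saline replicate 1). Of the 10 clock genes that differed between classes, 9 were called without METH replicate 1 and without METH replicate 2, Per1 being lost. The cause was not tested.

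Fold changes of this size changed sign often. Of 334 alternatives for 26 METH against saline fold changes, 23 reversed the direction, over 15 of the 26. With a library left out, log2 fold changes in excitatory neurons ranged from -0.0104 to 0.091 for Clock, -0.0266 to 0.131 for Arntl, -0.0234 to 0.185 for Cry1 and -0.024 to 0.121 for Nr1d2. In oligodendrocyte-like nuclei they ranged from -0.41 to 0.19 for Per3 and -0.57 to 0.16 for Nr1d2, and Nr1d2 ranged from -0.37 to 0.0048 in OPC-like, -0.0028 to 0.77 in microglia-like and -0.14 to 0.65 in vascular-like nuclei. In vascular-like nuclei they ranged from -1.89 to 0.26 for Nr1d1 and -0.58 to 0.41 for Dbp. The single values behind these ranges that reversed were -0.0104 for Clock and -0.0109 for Arntl without METH replicate 1, -0.0266 for Arntl without saline replicate 2, -0.0234 for Cry1 without saline replicate 1 and -0.024 for Nr1d2 without METH replicate 2 in excitatory neurons. Nr1d2 reached 0.08 in oligodendrocyte-like nuclei without METH replicate 1 and -0.08 in vascular-like nuclei without METH replicate 2. With at least 1000 genes per nucleus Dbp was 0.0777 in astrocyte-like, Nr1d2 0.0466 in OPC-like and Arntl 0.11 in vascular-like nuclei. With doublets kept Per3 was 0.011 in astrocyte-like, Nr1d2 0.0077 in oligodendrocyte-like, Per2 0.27 in microglia-like and Dbp -0.22 in vascular-like nuclei. With classes named by marker UMIs Per3 was 0.0070 in excitatory and 0.0124 in astrocyte-like nuclei. With equal numbers of nuclei Per1 was -0.0171 in excitatory and Dbp -0.0291 in vascular-like nuclei. None of these was called. Between neurons and glia, Nr1d1 was -0.11 with classes named by marker UMIs, and Dbp was -0.0031 with RLE size factors, -0.19 with marker UMIs and -0.0622 to 0.0661 with a library left out, and neither was called.

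The METH minus saline difference in clock balance moved by less than the spread between libraries of a group (1 SD) under 95 of 105 alternatives. It moved to -1.71 in oligodendrocyte-like, -2.73 in microglia-like and -0.51 in vascular-like nuclei when 1000 genes were required per nucleus, a filter that left 16 oligodendrocyte-like and 15 microglia-like nuclei in saline replicate 1 and 36 vascular-like nuclei in METH replicate 1. In microglia-like nuclei it was also 0.39 with 5 CPM added, 1.24 with Arntl and Npas2 averaged, 0.52 with doublets kept, and 0.40, 0.94, 0.47 and 0.96 without Per1, Per2, Nr1d1 and Dbp. The count of classes in which Dbp lay below saline fell from 6 to 3 with at least 1000 genes per nucleus. Depth limits Per1 outside excitatory neurons, Nr1d1 in oligodendrocyte-like, OPC-like and microglia-like nuclei, and every gene in microglia-like and vascular-like nuclei. The genes tested in microglia-like or vascular-like nuclei had wider 95% intervals there than in excitatory neurons.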

Other observations

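The perivascular macrophage-like and unnamed nuclei entered no comparison by class, though they were part of the sums over all nuclei. Summed over them, Dbp stood at 24.5 and 30.8 CPM in METH replicates 1 and 2 and at 31.7 and 21.4 CPM in saline replicates 1 and 2, and the groups overlapped. Clock stood at 106 and 114 CPM with METH and at 129 and 140.1 CPM with saline, the only member of the 10 whose groups lay apart there. The share of all genes that lay apart was not taken for these nuclei. It was 31.6% in excitatory neurons and 36% over all nuclei. Per3 stood at 223 and 325.5 CPM with METH and at 206.5 and 268.5 CPM with saline. The mix of clusters behind these sums differed between libraries, since saline replicate 1 held 2489 of the 3277 unnamed nuclei.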
